A study of Mus musculus with 43 samples.

Results

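The colony-stimulating factors are 3 secreted proteins that drive the growth and survival of myeloid cells, and their transcripts and those of their receptors were followed here in mouse lung. The genes were taken from the deposited count table by symbol: the ligands Csf1 (M-CSF), Csf2 (GM-CSF) and Csf3 (G-CSF), and the receptor genes Csf1r, Csf2ra, Csf2rb and Csf3r. All 7 were among the 21938 genes of the table, and 6 were among the 14836 genes with enough reads to be tested; Csf3 was too low. The samples were 43 RNA sequencing libraries of the inferior lung lobe, which were taken as 1 mouse each: 10 control mice given a vehicle, 16 mice of the bleomycin fibrosis model given the vehicle of nintedanib, and 17 mice of that model given nintedanib. Bleomycin is a DNA-breaking antibiotic used to scar rodent lungs, and nintedanib is a tyrosine kinase inhibitor used against pulmonary fibrosis whose targets include the kinase encoded by Csf1r. Strain, sex, age, dose, route and day of sampling were not among the labels, nor was the vehicle of the control mice, so a change of vehicle and bleomycin cannot be told apart. No label states that the libraries came from separate animals, and if they did not, the p-values describe technical spread only.

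CSF1 and IL-34 act through the receptor tyrosine kinase CSF1R, on which monocytes and most tissue macrophages depend. GM-CSF binds an alpha chain (Csf2ra) that pairs with the common beta chain (Csf2rb) and signals through JAK2 and STAT5; in the lung it comes largely from the epithelium and keeps alveolar macrophages mature. G-CSF binds CSF3R, which is found mainly on neutrophils and their precursors.

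Library totals ran from 13138281 to 19111457 counts and the ranges of the 3 groups overlapped. The genes of the alveolar epithelium list (surfactant proteins and other markers, 10 genes) summed to between 24700 and 70800 CPM over all libraries, with no gene at 0 in any group, as the label of lung requires. Levels are given in CPM, read counts relative to the library total after scaling by the TMM factor, which corrects for differences in composition. Library names fell into 3 number series of unknown meaning, called A (33 libraries), B (4) and C (6). Adipoq, a gene of fat cells, reached at least 1 CPM in 8 of 10 control, 0 of 16 vehicle and 5 of 17 nintedanib libraries, and its part in the results was not tested beyond leaving those libraries out. Values were tested with edgeR's quasi-likelihood test over all genes and adjusted by the Benjamini-Hochberg method, and a gene is said to have risen or fallen where the adjusted p was under 0.05.

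In bleomycin mice given vehicle, the 2 chains of the GM-CSF receptor rose most, Csf1r rose slightly and Csf3r fell, while Csf1 and Csf2 did not pass the test. That made 4 of the 6 tested genes (3 higher and 1 lower), where 57.9% of all tested genes passed, 29.5% higher and 28.3% lower. Under nintedanib, against vehicle, Csf2ra fell and Csf3r rose, 2 of 6, where 7.31% of all tested genes passed (3.21% higher, 4.1% lower). Against control mice, Csf1r, Csf2ra and Csf2rb were still higher in nintedanib mice, 3 of 6, where 53.2% of all genes passed (28.1% higher, 25.1% lower). Each comparison shares a group with the other 2. Without the Adipoq libraries, which leaves 2 control and 12 nintedanib libraries, 2 of the 6 passed in vehicle against control mice. These were Csf2ra at 1.35 (adjusted p = 7.8e-06) and Csf2rb at 1.88 (adjusted p = 0.0013). Over all genes the calls in that comparison went from 8585 to 3654, from 4381 to 2050 higher and from 4204 to 1604 lower. Counts of list genes without the Adipoq libraries, given below, stand beside this loss of calls over all genes. The median log2 fold change over all tested genes was within 0.01 of 0 in each comparison.

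**Figure D1:**
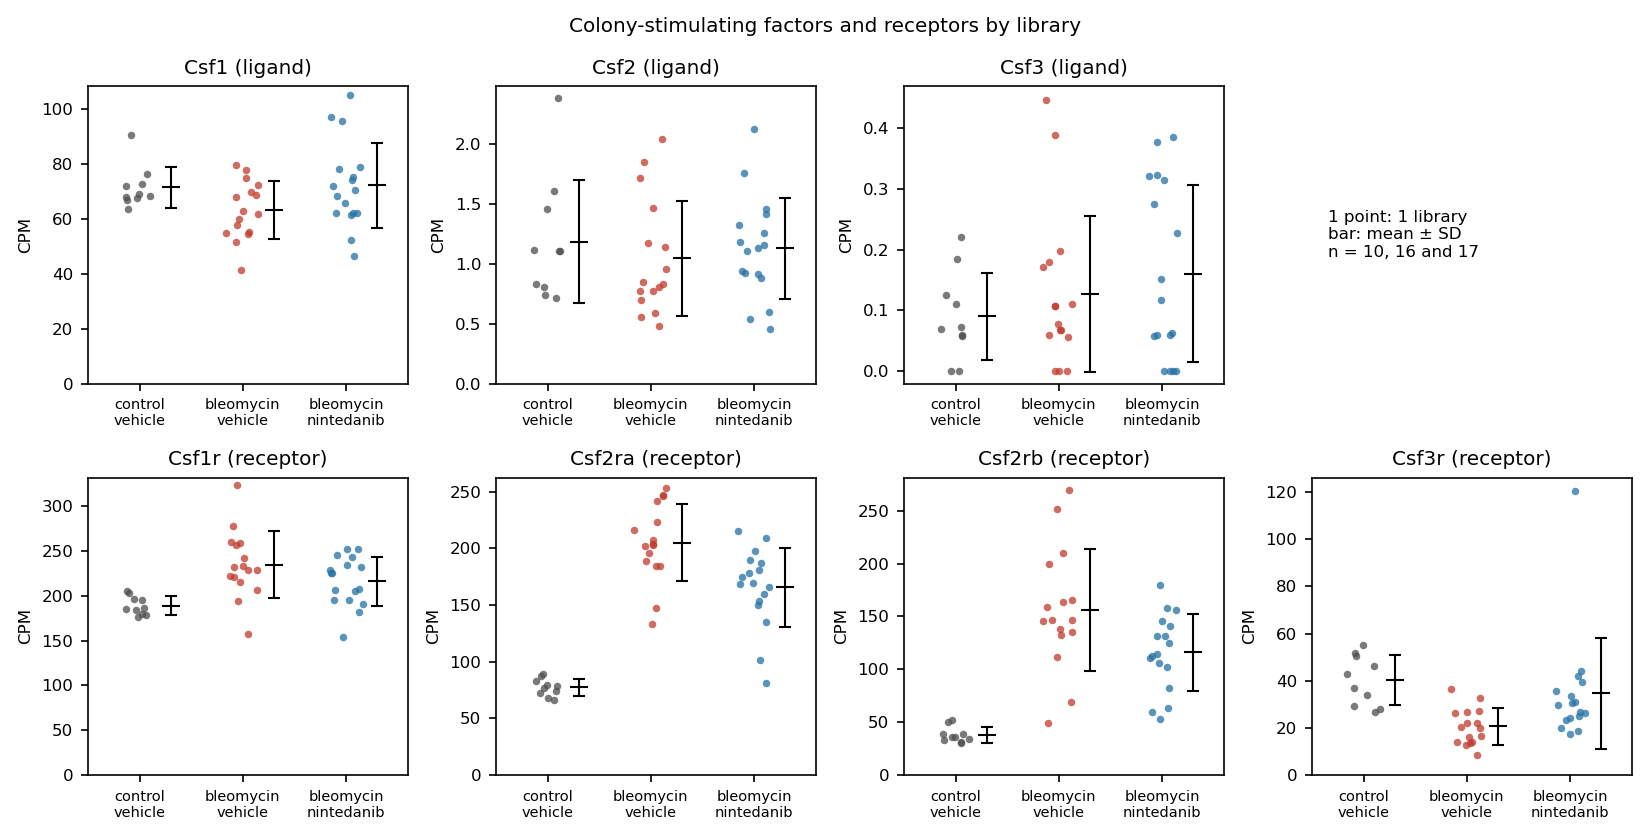
CPM of the 7 genes (y axes, linear) in control vehicle (n = 10), bleomycin vehicle (n = 16) and bleomycin nintedanib (n = 17) libraries, with 1 point per library and the mean ± SD beside the points. The GM-CSF receptor genes Csf2ra and Csf2rb lie higher in both bleomycin groups, the 3 ligand genes overlap between the groups, and 1 nintedanib library stands apart in Csf3r at 121 CPM.

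Among the ligands, Csf1 was the only abundant one. Csf1 encodes the macrophage growth factor M-CSF, made by fibroblasts, endothelium and epithelium, and lies on chromosome 3 from 107741048 to 107760469 (minus strand, GRCm38). Its level was 63.6 CPM in the lowest control library, 68.7 in the median and 90.6 in the highest. In vehicle mice it was 41.4, 62.3 and 79.8 CPM (lowest, median, highest), and in nintedanib mice 46.5, 70.5 and 105 CPM. The groups overlapped, although 9 of 16 vehicle libraries lay below every control library. The log2 fold change was -0.18 ± 0.10 (SE) in vehicle against control mice (adjusted p = 0.12), with a 95% interval of 0.77 to 1.02-fold. Nintedanib against vehicle gave 0.19 ± 0.09 (adjusted p = 0.17), and nintedanib against control 0.01 (adjusted p = 0.92). With library totals in place of TMM factors, and with 2 surrogate variables (estimated hidden factors), Csf1 passed as lower in vehicle mice, at -0.22 (adjusted p = 0.040) and -0.31 (adjusted p = 0.010); it also passed without vehicle library 4 (adjusted p = 0.047).

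Il34, the other ligand of CSF1R, is not a colony-stimulating factor by name but shares the receptor. Its range was 11.4 to 16.9 CPM in control libraries (median 14.1), 17.8 to 29.7 in vehicle libraries (median 19.7) and 15.3 to 24.5 in nintedanib libraries (median 18.3). All 16 vehicle libraries lay above all 10 control libraries, as did 14 of 17 nintedanib libraries. Vehicle libraries lay wholly above control libraries in 3.7% of tested genes. The log2 fold change of Il34 was 0.53 against control mice in vehicle mice (adjusted p = 2.1e-07) and 0.39 in nintedanib mice (adjusted p = 4.8e-05), and -0.15 between the bleomycin groups (adjusted p = 0.16). The difference of nintedanib from control mice did not pass without the Adipoq libraries (0.35, adjusted p = 0.088). The balance between the 2 CSF1R ligands was read as the ratio of Csf1 to Il34 counts within a library, which no scaling factor enters and which is not per length. The ratio was 4.13 to 5.99 in control libraries (median 5.03), 1.83 to 4.31 in vehicle libraries (median 3.21) and 2.34 to 5.76 in nintedanib libraries (median 3.97). Every vehicle library fell below the control median, and 13 of 17 nintedanib libraries lay above the vehicle median. On the log2 scale the ratio differed by -0.72 in vehicle against control mice (permutation test, adjusted p = 4.5e-05), by 0.32 in nintedanib against vehicle mice (adjusted p = 0.014) and by -0.40 in nintedanib against control mice (adjusted p = 0.0029). The tests took 3 ratios in 3 comparisons, 9 in all, two-sided with 100000 resamples, and the ratios were chosen with the values of these genes known. In series A alone the 3 differences of this ratio were -0.81, 0.41 and -0.40 and all passed. Without the Adipoq libraries they were -0.84, 0.30 and -0.54 and none did, nor did any other difference of a ratio. That subset keeps 2 control libraries, too few for the permutation test to reach a very small p against control.

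Csf2 transcripts were scarce in every group. The gene, which encodes GM-CSF, lies on chromosome 11 from 54247271 to 54249667 (minus strand) and is crossed on the opposite strand by the annotated antisense gene Gm12223, which shares 3.17% of its 75-base windows. Counts were 6 to 38 per library, or 0.712, 1.11 and 2.39 CPM in control (lowest, median, highest), 0.48, 0.842 and 2.04 in vehicle and 0.457, 1.13 and 2.13 in nintedanib libraries. The groups covered nearly the same range. The log2 fold changes were -0.18 ± 0.24 (adjusted p = 0.52), 0.12 ± 0.21 (adjusted p = 0.77) and -0.07 (adjusted p = 0.83) in vehicle against control, nintedanib against vehicle and nintedanib against control. The interval of the first, 0.635 to 1.22-fold, leaves room for a fall or a rise of moderate size at this depth.

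Csf3 was near the limit of detection. This gene of G-CSF, on chromosome 11 from 98701263 to 98703629 (plus strand), gave 91 counts in all 43 libraries together and 0 to 7 per library. It had no count in 2 control, 3 vehicle and 4 nintedanib libraries, where a count of 0 allows up to 0.164 to 0.197 CPM (3 counts; counting error only). Medians were 0.071, 0.0926 and 0.117 CPM in control, vehicle and nintedanib libraries, with highest values of 0.221, 0.447 and 0.386. Run without the filter on low counts, edgeR's quasi-likelihood test gave log2 fold changes of 0.47 ± 0.58 (adjusted p = 0.53), 0.28 ± 0.47 (adjusted p = 0.77) and 0.75 ± 0.57 (adjusted p = 0.30) in the order above. A change in Csf3 was not detectable at this depth.

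Csf1r, the receptor tyrosine kinase of CSF1 and IL-34, lies on chromosome 18 from 61100598 to 61132149 (plus strand). The opposite-strand gene Hmgxb3 shares 13.9% of its 75-base windows, so reads there are uncertain where the strand setting of the counting is unknown. Csf1r stood at 176, 186 and 205 CPM in control libraries (lowest, median, highest), at 157, 231 and 323 in vehicle libraries and at 154, 225 and 253 in nintedanib libraries. Of the 16 vehicle libraries, 14 lay above every control library and 1 below every one; of the 17 nintedanib libraries, 12 lay above and 1 below. The rise in vehicle mice was 1.24-fold (log2 fold change 0.31 ± 0.08, adjusted p = 0.00047). In nintedanib mice, Csf1r differed from vehicle by -0.12 ± 0.06 (adjusted p = 0.25), a 95% interval of 0.841 to 1.01-fold, and from control by 0.20 ± 0.07 (adjusted p = 0.025). The last call was fragile: it was lost without any 1 of 13 libraries (adjusted p up to 0.099), namely control libraries 2 to 10, vehicle libraries 6, 8 and 10 or nintedanib library 12, and also with library totals (adjusted p = 0.12) and 2 surrogate variables (adjusted p = 0.20). Without the Adipoq libraries, which leaves 2 control libraries, neither rise passed (0.23, adjusted p = 0.23, and 0.19, adjusted p = 0.36). In whole lung, more receptor cells and more transcript per cell cannot be told apart, here and for each gene below.

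**Figure D2:**
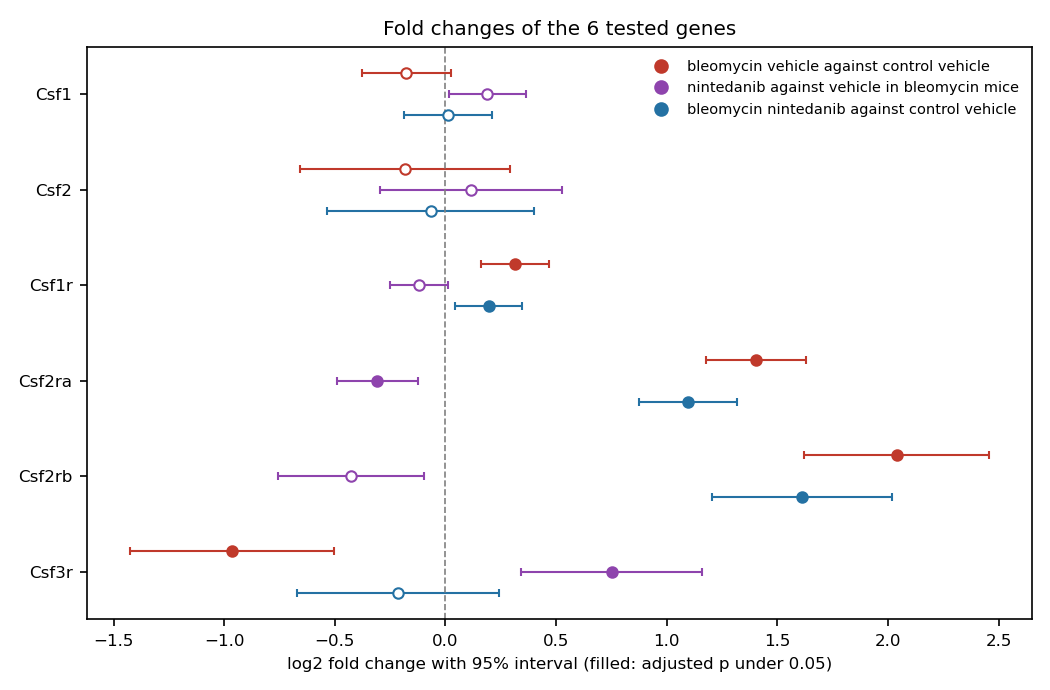
Log2 fold change (x axis) with its 95% interval for the 6 tested genes (y axis) in the 3 comparisons; filled points have an adjusted p under 0.05. Csf2ra and Csf2rb have the largest rises against control mice, 1.40 and 2.04 in vehicle mice, and Csf3r is the only gene with a call below 0 in vehicle mice and above 0 under nintedanib.

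Csf2ra encodes the GM-CSF-binding alpha chain (chromosome 19, 61223957 to 61228429, minus strand). It stood at 66.3, 77.3 and 89.0 CPM in control libraries (lowest, median, highest), 133, 204 and 253 in vehicle libraries and 81.0, 169 and 215 in nintedanib libraries. Vehicle and control libraries did not overlap, as in 5.54% of tested genes (3.7% with the bleomycin group higher, 1.84% with it lower), and 16 of 17 nintedanib libraries lay above every control library. The rise was 2.65-fold in vehicle mice (log2 fold change 1.40 ± 0.11, adjusted p = 1.3e-13) and 2.14-fold in nintedanib mice (1.10 ± 0.11, adjusted p = 5.6e-11). Between the bleomycin groups Csf2ra fell by 0.31 ± 0.09 on the log2 scale under nintedanib (0.808-fold, 95% interval 0.712 to 0.919, adjusted p = 0.033), and 15 of 17 nintedanib libraries lay below the vehicle median. This fall was as large in series A (-0.34, adjusted p = 0.021) but did not pass without the Adipoq libraries (-0.21, adjusted p = 0.11), with only the 2 bleomycin groups in the fit (adjusted p = 0.062), or without any 1 of nintedanib libraries 1, 2 and 7 and vehicle libraries 2 and 11 (adjusted p up to 0.057).

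Csf2rb encodes the signalling beta chain shared by the receptors of GM-CSF, IL-3 and IL-5 (chromosome 15, 78325752 to 78353847, plus strand). Mice carry a near copy, Csf2rb2, which encodes a beta chain used by IL-3 alone and lies 20030 bases away (78282507 to 78305721, minus strand). The coding sequences were 95.4% identical over 2626 aligned bases, and 518 of the 75-base windows were identical, 7.15% of those of Csf2rb and 10.6% of those of Csf2rb2, so that reads of the tested length from these windows could have gone to either gene or been lost. The 75 coding bases below, coding positions 10 to 84 in both, are shown because they hold about as many differences as a read-length window does on average (3.48). They lie at chr15:78335216-78335290 (plus strand) in Csf2rb and chr15:78298146-78298220 (minus strand) in Csf2rb2 (GRCm38). Capitals mark the 3 differences, counted from 1 at the first base shown, Csf2rb base first: T51C, G62A and C74A.
Csf2rb: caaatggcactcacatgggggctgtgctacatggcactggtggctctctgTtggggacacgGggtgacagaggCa
Csf2rb2: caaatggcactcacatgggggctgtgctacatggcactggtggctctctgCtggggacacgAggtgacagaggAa

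Csf2rb had the largest rise of the 7 genes. It stood at 30.2, 35.7 and 51.8 CPM in control libraries (lowest, median, highest), 48.9, 147 and 270 in vehicle libraries and 53.2, 115 and 180 in nintedanib libraries. All 17 nintedanib libraries and 15 of 16 vehicle libraries lay above every control library; nintedanib and control libraries did not overlap, as in 7.37% of tested genes (4.31% higher, 3.07% lower). The rise was 4.11-fold in vehicle mice (log2 fold change 2.04 ± 0.21, adjusted p = 7.6e-11) and 3.06-fold in nintedanib mice (1.61 ± 0.20, adjusted p = 1.1e-08). Nintedanib against vehicle gave -0.43 ± 0.16 (0.744-fold, adjusted p = 0.095), with 14 of 17 libraries below the vehicle median. It passed without vehicle library 10 (-0.50, adjusted p = 0.027) or 13 (-0.48, adjusted p = 0.042), the 2 lowest of their group.

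Csf2rb2 followed the same order at a lower level: 8.72 to 16.9 CPM in control libraries (median 11), 23.7 to 109 in vehicle libraries (median 58.7) and 19.7 to 67.3 in nintedanib libraries (median 48.3). Every bleomycin library of either group lay above every control library. Such separation upward from control held in 3.7% of tested genes for vehicle libraries and in 4.31% for nintedanib libraries. The log2 fold change was 2.40 ± 0.20 in vehicle mice (adjusted p = 3e-13), 2.01 ± 0.19 in nintedanib mice (adjusted p = 1.9e-11) and -0.39 ± 0.15 between them (adjusted p = 0.10). The 3 chains changed by unequal amounts. The ratio of Csf2ra to Csf2rb counts within a library was 1.72, 2.13 and 2.47 in control libraries (lowest, median, highest), 0.918, 1.34 and 3.01 in vehicle libraries and 1.2, 1.43 and 2.14 in nintedanib libraries. On the log2 scale it differed by -0.56 in vehicle mice (permutation test, adjusted p = 0.0011), with 15 of 16 libraries below the control median; the exception, vehicle library 10, had the highest ratio of all at 3.01. In nintedanib mice the difference from control was -0.49 (adjusted p = 4.5e-05) and that from vehicle 0.07 (adjusted p = 0.55). The ratio of Csf2rb to Csf2rb2 was 2.91 to 4.29 in control (median 3.3), 2.03 to 3.29 in vehicle (median 2.67) and 2.1 to 3.22 in nintedanib libraries (median 2.5), differing by -0.38 and -0.42 from control (adjusted p = 4.5e-05 for both) and by -0.04 between the bleomycin groups (adjusted p = 0.55). In series A the differences from control were -0.55 and -0.49 for the first ratio and -0.40 and -0.40 for the second.

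**Figure D3:**
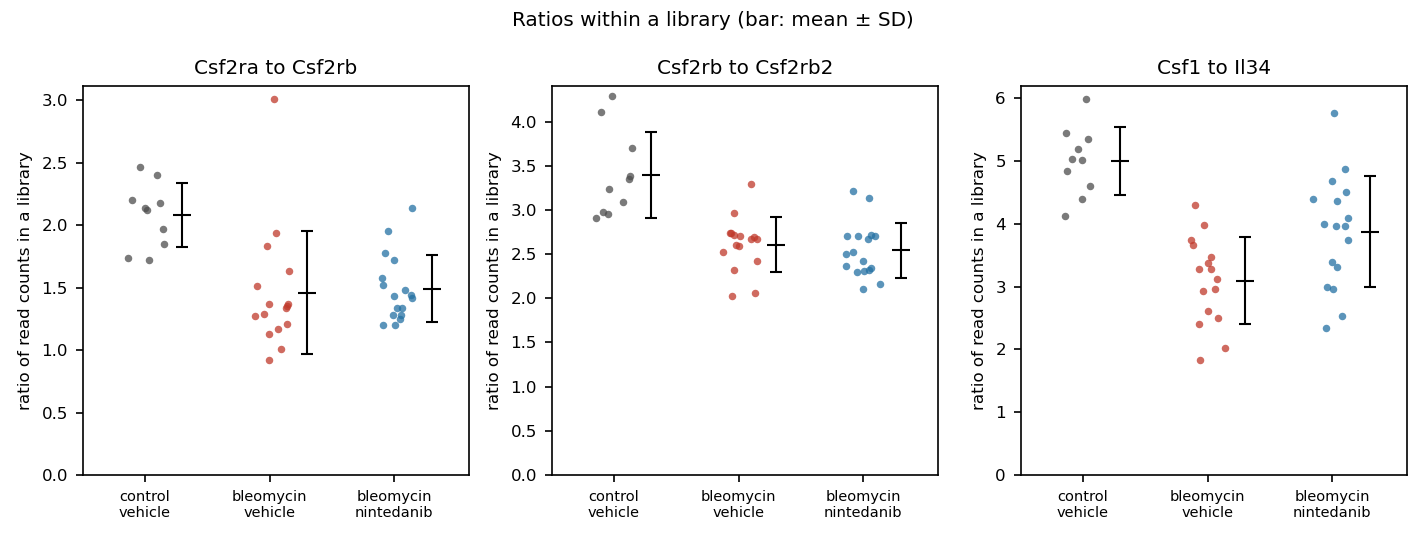
Ratio of read counts within a library (y axes, from 0) for Csf2ra to Csf2rb, Csf2rb to Csf2rb2 and Csf1 to Il34 in the 3 groups, 1 point per library with the mean ± SD. The medians of all 3 ratios are lower in both bleomycin groups than in control libraries, although single libraries overlap the control range, with medians of 2.13, 1.34 and 1.43 for Csf2ra to Csf2rb.

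Levels of the 2 GM-CSF receptor chains went together from mouse to mouse. Within groups, Pearson's r of log2 CPM of Csf2ra and Csf2rb was 0.778 in control libraries (n = 10, permutation p = 0.0083, adjusted p = 0.042), 0.899 in vehicle libraries (n = 16, p = 6e-05, adjusted p = 0.00045) and 0.904 in nintedanib libraries (n = 17, p = 1e-05, the smallest that 100000 resamples can give, adjusted p = 0.00015). Spearman's rho was 0.661 (adjusted permutation p = 0.16), 0.741 (0.0097) and 0.858 (0.0003), so the rank relation did not pass in control mice. Leaving out the 2 libraries farthest from the median of Csf2ra gave r of 0.815, 0.780 and 0.847. These were 3 of 15 relations tested, over 5 pairs in 3 groups. The other 12, which set each ligand against its receptor (Csf1 with Csf1r, Csf2 with either chain, Csf3 with Csf3r), had r between -0.143 and 0.498 and none passed, the lowest adjusted permutation p being 0.15. Counts of Csf2 and Csf3 were so low that sampling alone limits such a relation.

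**Figure D4:**
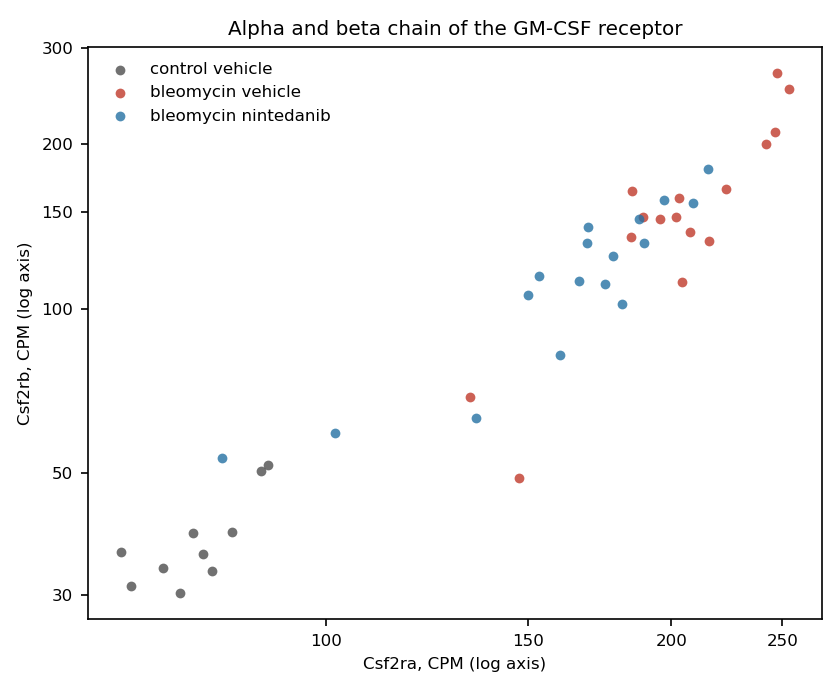
Csf2ra (x axis) against Csf2rb (y axis) in CPM on log axes, 1 point per library, coloured by group. Control libraries sit at 66.3 to 89.0 CPM of Csf2ra and 30.2 to 51.8 of Csf2rb, and within each group libraries with more Csf2ra also had more Csf2rb (r of 0.778, 0.899 and 0.904).

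Promoter sequence was searched for a myeloid motif in some of these genes. RefSeq (GRCm38.p6) gives a promoter for Csf1, Csf2, Csf2ra, Csf3r and Csf2rb2 in the table used here; Csf2rb and Csf3 were not matched, and Csf1r was not searched here. The 250 bases before the start site were searched on both strands for GAGGAA, a core of the sites bound by PU.1, the myeloid transcription factor encoded by Spi1; 23.3% of 32851 promoters hold it. Csf2ra held 2 matches, beginning 14 and 8 bases before the start. Csf3r held 1 (86 bases before) and Csf2rb2 1 on the opposite strand (167 bases before), while Csf1 and Csf2 held none. For Csf2 the RefSeq start (54249899) lies upstream of the start of the GENCODE gene (54249667). Most of the 250 bases before the GENCODE start of Csf2 were therefore not searched. Capitals mark the matches in the sequences below, which are shown 5′ to 3′ on the strand of the gene: the Csf2ra promoter at chr19:61228419-61228668 (minus strand), and the 30 bases around the match at chr4:126024561-126024590 (plus strand) for Csf3r and chr15:78305871-78305900 (minus strand) for Csf2rb2. The Csf3r window lies inside the GENCODE gene, which begins upstream of the RefSeq start. The GENCODE gene of Csf2ra also begins upstream of its RefSeq start (61228429 against 61228418, minus strand). Of its 2 matches, the one 8 bases before lies inside that gene, and the one 14 bases before crosses the first base of the gene. Whether PU.1 binds at any of these places in these lungs was not measured, and its part in the changes of the receptor genes was not tested.
Csf2ra: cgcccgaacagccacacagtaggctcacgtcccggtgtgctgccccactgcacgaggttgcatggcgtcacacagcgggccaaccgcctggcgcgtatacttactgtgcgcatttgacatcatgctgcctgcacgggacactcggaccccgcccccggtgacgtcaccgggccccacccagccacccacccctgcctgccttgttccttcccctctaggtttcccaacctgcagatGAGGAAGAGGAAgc
Csf3r: cctccttcctgaGAGGAAggggctgtctat
Csf2rb2: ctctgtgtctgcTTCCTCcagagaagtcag

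Csf3r, the G-CSF receptor (chromosome 4, 126024550 to 126044440, plus strand), moved against the other receptors. It stood at 26.7, 39.9 and 55.3 CPM in control libraries (lowest, median, highest), 8.67, 20.2 and 36.6 in vehicle libraries and 17.4, 29.8 and 121 in nintedanib libraries. All 16 vehicle libraries lay below the control median and 13 below every control library, while 14 of 17 nintedanib libraries lay above the vehicle median and 4 above every vehicle library. The fall in vehicle mice was to 0.512-fold (log2 fold change -0.96 ± 0.23, adjusted p = 0.00041). Under nintedanib it rose 1.68-fold against vehicle (0.75 ± 0.20, 95% interval 1.27 to 2.24-fold, adjusted p = 0.019), and against control mice it differed by -0.21 ± 0.23 (adjusted p = 0.44). Nintedanib library 15, of series B, held 2063 counts of Csf3r where the next held 731. Without it the rise against vehicle was 0.51 (adjusted p = 0.040) and the difference from control was -0.46 (adjusted p = 0.026), past the threshold. Within series A the values were 0.57 (adjusted p = 0.052) and -0.51 (adjusted p = 0.025); series B has no control library and series C has 1, so neither gives a comparison with control mice. Without the Adipoq libraries, which leaves 2 control libraries, the fall in vehicle mice was -0.90 (adjusted p = 0.13).

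Genes of neutrophils, the main cells with CSF3R, were set beside it. S100a9, S100a8 and Retnlg, all abundant neutrophil transcripts, were among the genes whose levels ran closest to Csf3r over the 43 libraries once group means were subtracted, with r of 0.902, 0.809 and 0.857 (a description over libraries, chosen as the highest of 12205 genes). S100a9 ranged over 13.7 to 47.0 CPM in control, 3.76 to 34.8 in vehicle and 8.82 to 251 in nintedanib libraries, with the 251 again in library 15 and the next at 53.2. The neutrophil marker list of 10 genes summed to 97.5 to 237 CPM in control, 139 to 280 in vehicle and 142 to 820 in nintedanib libraries, no gene was at 0 in a whole group, and the next nintedanib library after library 15 reached 323. Of its 9 tested genes, 2 rose and 2 fell in vehicle mice, and 3 rose under nintedanib against vehicle. Over all tested genes 29.5% rose and 28.3% fell in vehicle mice, and 3.21% rose under nintedanib against vehicle. Without library 15 none of the 9 passed against vehicle (their median log2 fold change was 0.36, against 0.78 with it). The part of neutrophil number in the Csf3r values was not tested.

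**Figure D5:**
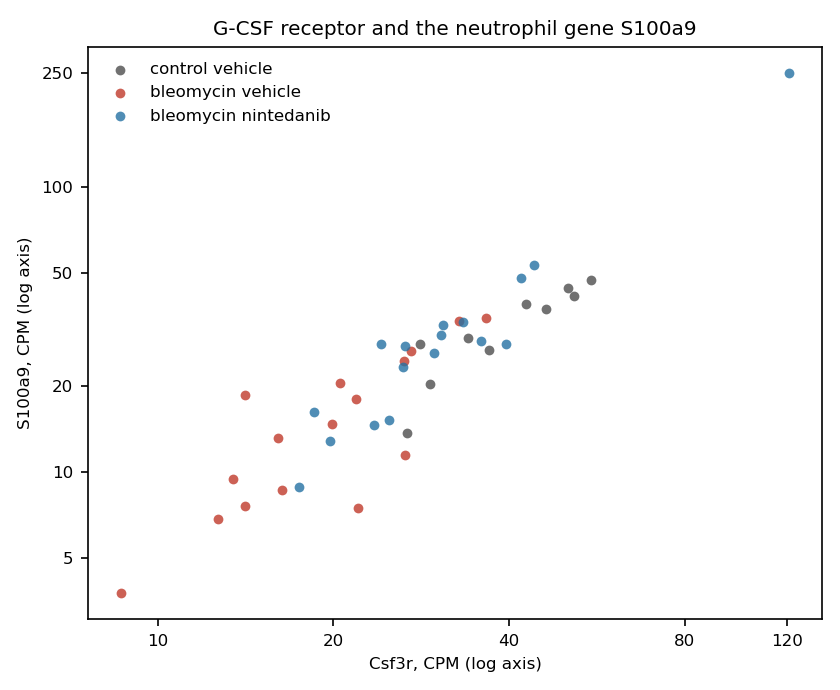
Csf3r (x axis) against S100a9, a calcium-binding protein of neutrophils (y axis), in CPM on log axes, 1 point per library, coloured by group. The 2 genes run together, vehicle libraries reach the lowest values of both (8.67 and 3.76 CPM), and 1 nintedanib library lies apart at 121 and 251 CPM.

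The genes whose levels ran closest to each of the other receptors, after group means were subtracted, were mostly those of myeloid cells. For Csf1r they included Fcgr3 (r = 0.819), an IgG receptor, and Slc15a3 (0.814), a lysosomal peptide transporter. For Csf2ra they were Cd300lf (0.888), Cd300c2 (0.880) and Apobr (0.877), and for Csf2rb Sirpa (0.949), a myeloid inhibitory receptor, Tnfrsf1b (0.940), a TNF receptor, and Csf2rb2 (0.939). Csf1 ran with Kank1 (0.817), Podn (0.803) and Rspo1 (0.792), of which the last 2 are secreted. Csf2 had no close partner, its highest r being 0.557 (Pinx1). Among the receptors themselves, r was 0.865 for Csf2ra with Csf2rb, 0.672 and 0.677 for Csf1r with those chains, and 0.285, -0.026 and -0.114 for Csf3r with Csf1r, Csf2ra and Csf2rb. These are descriptions over 43 libraries that share scaling and tissue makeup.

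Per kilobase of exon, which allows genes to be compared, the order of levels also differed between groups. In control libraries the mean levels were 32.7 ± 1.79 CPM per kb for Csf1r (SD, n = 10), 27 ± 2.69 for Csf2ra, 13.5 ± 1.44 for Csf1, 11.1 ± 2.94 for Csf3r, 5.22 ± 1.03 for Csf2rb, 1.48 ± 0.647 for Csf2 and 0.0639 ± 0.051 for Csf3. The ranges of Csf1r and Csf2ra overlapped, as did those of Csf1 and Csf3r; other neighbours did not. In vehicle libraries (n = 16) Csf2ra came first at 71.4 ± 11.8 CPM per kb, then Csf1r at 40.7 ± 6.44, Csf2rb at 21.4 ± 7.91, Csf1 at 12 ± 2.0, Csf3r at 5.71 ± 2.15, Csf2 at 1.31 ± 0.603 and Csf3 at 0.0902 ± 0.0911, and all neighbours but Csf2 and Csf3 overlapped. Nintedanib libraries (n = 17) kept the vehicle order, with 57.7 ± 12.2, 37.4 ± 4.74, 15.9 ± 4.97, 13.7 ± 2.96, 9.58 ± 6.51, 1.41 ± 0.532 and 0.114 ± 0.103 CPM per kb, and there Csf1r and Csf2rb, Csf3r and Csf2, and Csf2 and Csf3 did not overlap.

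Further cytokines and receptors that share these chains were measured from a list of 6 genes. Against control mice Il3ra, the IL-3 receptor alpha chain, rose by 0.31 on the log2 scale in vehicle mice (adjusted p = 0.011), and Il5ra, the eosinophil IL-5 receptor alpha chain, fell by 1.23 (adjusted p = 0.001); in nintedanib mice Il5ra fell by 1.34 (adjusted p = 0.00041). None of these 3 calls held without the Adipoq libraries: Il3ra was at 0.16 (adjusted p = 0.56), and Il5ra at -1.10 in vehicle mice (adjusted p = 0.15) and -1.37 in nintedanib mice (adjusted p = 0.085). With 2 surrogate variables Il3ra did not pass either (0.14, adjusted p = 0.19). Of the 4 tested genes (these, Il34 and Csf2rb2), 3 rose and 1 fell in vehicle mice (2 and 0 without the Adipoq libraries). The shares over all tested genes were 29.5% higher and 28.3% lower. Without the Adipoq libraries 2050 of all genes rose and 1604 fell in vehicle mice, against 4381 and 4204 with all libraries. None of the 4 passed between the bleomycin groups, where 7.31% of all tested genes did. The nearest was Il3ra at -0.25 (adjusted p = 0.068), which passed without the Adipoq libraries (-0.35, adjusted p = 0.030) and with limma-voom (adjusted p = 0.046). Il3 and Il5 were too low to be tested: Il3 gave 3 counts in all and none in 41 of 43 libraries, which allows up to 0.157 to 0.228 CPM in each.

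Below the receptors, 8 of 18 JAK-STAT genes passed in vehicle against control mice, 6 higher and 2 lower (median log2 fold change 0.05, against -0.01 over all genes). Over all tested genes 57.9% passed in this comparison, 29.5% higher and 28.3% lower, and 7.31% in nintedanib against vehicle mice. Socs3, a feedback inhibitor induced by STAT3, rose 2.33-fold (1.22 ± 0.18, adjusted p = 3.3e-07), from a median of 45.8 CPM to 119. Stat3, the factor below G-CSF receptor, rose 1.36-fold (adjusted p = 3.9e-08) and Jak2, the kinase bound to the common beta chain, 1.23-fold (adjusted p = 6.1e-07). Stat5b, which carries the GM-CSF signal, fell to 0.758-fold (adjusted p = 1.3e-09), with all control libraries at or above 94.8 CPM and all vehicle libraries at or below 89.2. Vehicle libraries lay wholly below control libraries in 1.84% of tested genes. Under nintedanib against vehicle 2 of the 18 passed, both lower: Lyn, a Src-family kinase bound to the beta chain, by 0.22 (adjusted p = 0.0014) and Jak2 by 0.13 (adjusted p = 0.035) on the log2 scale; Jak2 did not pass in series A, without the Adipoq libraries, with 2 groups in the fit or with 2 surrogate variables (adjusted p of 0.051 to 0.15). Of 15 adaptors and partners of CSF1R, 7 rose and 4 fell in vehicle mice (median 0.15). Without the Adipoq libraries 3 rose and 1 fell of the JAK-STAT genes, and 1 rose and 3 fell of the adaptors. Over all genes 2050 rose and 1604 fell without those libraries, against 4381 and 4204 with all libraries. Tyrobp, the DAP12 adaptor of macrophages, rose 2.42-fold (1.28 ± 0.16, adjusted p = 5.8e-09) and the phosphatidylinositol kinase subunit Pik3r1 fell to 0.813-fold (adjusted p = 1.6e-07). None of the 15 passed between the bleomycin groups, the smallest adjusted p being 0.052 for the leukocyte kinase subunit Pik3cd (-0.24); this one passed without nintedanib library 15 (-0.28, adjusted p = 0.019), in series A (-0.40, adjusted p = 0.0062), and with library totals, DESeq2 or limma-voom (adjusted p of 0.037 to 0.048).

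CSF1R belongs to the class III receptor tyrosine kinases, with KIT, FLT3 and the PDGF receptors, and 10 genes of these and their ligands were measured. In vehicle mice 2 rose and 6 fell (median -0.36), where 29.5% of all tested genes rose and 28.3% fell. The PDGF receptor ligand Pdgfc rose 4.25-fold (2.09 ± 0.19, adjusted p = 4.9e-12). The KIT ligand gene Kitl fell to 0.526-fold (adjusted p = 2.1e-08) and Pdgfra, the receptor of lung fibroblasts, to 0.639-fold (adjusted p = 2.1e-05). Under nintedanib against vehicle 3 of 10 passed, where 3.21% of all tested genes rose and 4.1% fell. Pdgfra rose 1.35-fold (0.43 ± 0.11, adjusted p = 0.012), from a median of 202 CPM to 277. Pdgfrb, the receptor of pericytes and other mesenchymal cells, fell to 0.759-fold (-0.40 ± 0.12, adjusted p = 0.030) and Flt3, a receptor of dendritic cells and their precursors, to 0.671-fold (adjusted p = 0.024). None of these 3 passed without the Adipoq libraries, where the values were 0.40, -0.40 and -0.48 (adjusted p = 0.068, 0.098 and 0.14), nor did Pdgfrb and Flt3 with 2 groups in the fit (adjusted p = 0.063 and 0.051). In vehicle against control mice 1 of the 10 rose and 4 fell without those libraries. Over all genes 2050 rose and 1604 fell without them, against 4381 and 4204 with all libraries. Under nintedanib against vehicle 4 of 10 dendritic cell markers, Flt3 among them, fell and none rose.

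Among 14 tested myeloid transcription factors, 8 rose and 2 fell in vehicle mice (median 0.31), where 29.5% of all tested genes rose and 28.3% fell. Mitf and Tfec, related factors of the macrophage and osteoclast lineage, rose 1.54-fold and 3.38-fold, and Egr2 rose 2.8-fold (adjusted p = 4.1e-10, 4.8e-09 and 1.4e-08). Spi1, the PU.1 gene named for its motif above, rose 1.89-fold (adjusted p = 2.3e-07) and differed by -0.31 under nintedanib (adjusted p = 0.076). Between the bleomycin groups Irf8, a factor of monocytes and dendritic cells, fell by 0.35 (adjusted p = 0.018) and Irf5 by 0.30 (adjusted p = 0.048); the call of Irf5 was lost in 8 alternatives and that of Irf8 without the Adipoq libraries. Of 18 tested genes known to induce colony-stimulating factors or to relay their induction, 12 rose and 4 fell in vehicle mice (median 0.61). Without the Adipoq libraries 5 of the factors rose and 1 fell, and 6 of the inducers rose and none fell. Over all genes 2050 rose and 1604 fell without those libraries, against 4381 and 4204 with all libraries. The oncostatin M receptor Osmr rose 1.76-fold, the IL-1 receptor Il1r1 1.53-fold, the pattern receptor Tlr2 3.04-fold and the NF-kB subunit Relb 1.54-fold (adjusted p of 5.6e-08 or less for each). Under nintedanib against vehicle only Relb of the inducers passed, falling by 0.30 (adjusted p = 0.0081). For all tested genes the shares in this comparison were 3.21% higher and 4.1% lower.

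Genes that depend on GM-CSF in alveolar macrophages were mixed. Of 18, 11 rose and 5 fell in vehicle mice (median 0.83): Bhlhe40, a transcription factor of proliferating alveolar macrophages, rose 1.89-fold, the IL-1 receptor antagonist Il1rn 3.44-fold and Plet1 2.75-fold (adjusted p = 9.6e-10, 2.4e-09 and 5.4e-08), whereas Cidec, a lipid droplet gene that fat cells also express, fell to 0.114-fold, a log2 fold change of -3.13 (adjusted p = 1.8e-07), which was -1.44 without the Adipoq libraries (adjusted p = 0.050). Over all tested genes 29.5% rose and 28.3% fell in vehicle mice, and 3.21% rose and 4.1% fell under nintedanib against vehicle. Leaving out the Adipoq libraries, 8 of the 18 rose and 3 fell in vehicle mice. Over all genes 2050 rose and 1604 fell without those libraries, against 4381 and 4204 with all libraries. Nintedanib against vehicle left 2 of 18 past the threshold. Bhlhe40 was lower by 0.32 (adjusted p = 0.022) and Car4, also a gene of capillary endothelium, lower by 0.45 (adjusted p = 0.043). Neither passed in series A (adjusted p = 0.057 and 0.14) or without the Adipoq libraries (0.082 and 0.083). The call of Car4 was lost in 6 alternatives in all. Of 10 alveolar macrophage markers, 6 rose and 3 fell in vehicle mice, and their sum was 549 to 1180 CPM in control (median 629), 498 to 3510 in vehicle (median 1400) and 643 to 3720 in nintedanib libraries (median 1310), with none at 0. Between the bleomycin groups 1 of the 10 passed, Car4. The part of alveolar macrophage number in the Csf2ra and Csf2rb values was not tested.

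Of the genes of CSF1-dependent interstitial and recruited macrophages, 12 of 19 rose and 2 fell in vehicle mice (median 0.81, and 10 and 1 without the Adipoq libraries). In nintedanib mice against control 12 rose and 2 fell (median 0.79). The shares of all tested genes that rose and fell were 29.5% and 28.3% in vehicle mice, and 28.1% and 25.1% in nintedanib mice. Under nintedanib against vehicle they were 3.21% and 4.1%. Without the Adipoq libraries 2050 of all genes rose and 1604 fell in vehicle mice, against 4381 and 4204 with all libraries. Trem2, a lipid receptor of macrophages, rose 14.1-fold (3.82 ± 0.17, adjusted p = 4.4e-21), with control libraries at 3.48 to 6.29 CPM and vehicle libraries at 46.3 to 92.6. Vehicle libraries lay wholly above control libraries in 3.7% of tested genes. The complement genes C1qa, C1qb and C1qc rose 4.98, 5.92 and 5.0-fold (adjusted p = 5.8e-13, 9.7e-14 and 1.3e-13). Between the bleomycin groups 1 of 19 passed, Lyve1, a receptor of perivascular macrophages and of lymphatic endothelium, which rose 1.49-fold (adjusted p = 0.047). Its call was lost without nintedanib library 15 (adjusted p = 0.052). It was also lost in 5 other alternatives, among them leaving out the Adipoq libraries (0.53, adjusted p = 0.15). Of 11 monocyte markers, 2 rose and 5 fell in vehicle mice (median 0.10), and their sums overlapped (1970 to 2550 CPM in control, 1750 to 2360 in vehicle and 1600 to 2560 in nintedanib libraries).

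The G-CSF driven neutrophil list held 14 tested genes, and 4 rose and 4 fell in vehicle mice (median -0.27, and 2 and 0 without the Adipoq libraries). Over all tested genes 29.5% rose and 28.3% fell in vehicle mice, and 3.21% rose and 4.1% fell under nintedanib against vehicle. Lcn2, an iron-scavenging protein that injured epithelium also makes, rose 7.93-fold (adjusted p = 3.5e-14) and the histidine decarboxylase Hdc 1.79-fold (adjusted p = 6e-08), while the gelatinase Mmp9 fell to 0.43-fold (adjusted p = 0.00065) but not without the Adipoq libraries (-0.78, adjusted p = 0.35). Under nintedanib against vehicle 5 rose and none fell (median 0.87), among them Stfa2l1 (1.31 ± 0.31, adjusted p = 0.0081), S100a9 (1.30 ± 0.34, adjusted p = 0.016), Mmp9 (0.99 ± 0.27, adjusted p = 0.020) and S100a8 (0.97 ± 0.28, adjusted p = 0.027). Without nintedanib library 15, 2 rose and 1 fell (median 0.43). Stfa2l1 kept its call at 1.04 (adjusted p = 0.017), but it was low, with median counts of 14, 5 and 10 in control, vehicle and nintedanib libraries. S100a9 (0.72), Mmp9 (0.54) and S100a8 (0.50) did not pass without library 15 (adjusted p = 0.063, 0.058 and 0.094), nor did they in series A (adjusted p = 0.058, 0.078 and 0.065). With limma-voom Mmp9 and S100a8 did not pass either (adjusted p = 0.080 and 0.061), nor did S100a8 with 2 groups in the fit (adjusted p = 0.053). In nintedanib mice against control 5 of the 14 rose and 1 fell, where 28.1% of all tested genes rose and 25.1% fell. Without library 15, 4 of the 14 rose and 2 fell in that comparison.

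Of the other cell types whose markers were listed, B cells (7 of 7 genes), endothelium (9 of 10) and airway epithelium (9 of 10, with 1 rising) fell in vehicle mice, and mast cells, basophils and eosinophils fell in 5 of 6 tested genes, Il5ra among them. T cell and innate lymphoid genes fell in 5 and rose in 1 of 11, fibroblast genes rose in 5 and fell in 3 of 10, dendritic cell genes rose in 5 and fell in 3 of 10, alveolar epithelial genes rose in 4 and fell in 1 of 10, and fat cell genes fell in 6 of 6. For all tested genes the shares in vehicle mice were 29.5% higher and 28.3% lower. Fat cell markers summed to 8.87 to 2240 CPM in control, 1.88 to 13.5 in vehicle and 2.41 to 1060 in nintedanib libraries. Their part in the receptor values was not tested.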

How the data were processed

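RNA of the inferior lung lobe was measured in 43 libraries (polyA RNA, directional kit, single-end 75-base reads, per the labels' protocols). The values are raw read counts by gene, in a single table that the authors deposited. STAR 2.7.0f, R 3.6.0 and GRCm38 appear, with no role, per the submitters' processing notes. The counting tool, its strand setting and the annotation were not given in the sources used here. Without the strand setting, reads of overlapping genes on opposite strands (Csf1r with Hmgxb3, Csf2 with Gm12223) cannot be told apart. All 21938 gene identifiers matched a symbol in the GENCODE annotation of GRCm38, which also gave coordinates and exon lengths.

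Genes were kept with edgeR's filterByExpr (minimum count 10, minimum total 15), which left 14836 genes and 99.96% of counts. edgeR's quasi-likelihood test (two-sided, TMM factors, robust, 1 coefficient per group, all 43 libraries) was run over all genes, with Benjamini-Hochberg adjustment and a threshold of 0.05. Depth was 13138281 to 19111457 counts per library, and intervals and floors cover counting or replicate error only. No library pair within a group agreed within sampling noise (smallest chi-square per degree of freedom 5.22 over 301 pairs), so each was counted once. Log2 CPM used a prior count of 2. Pairs and within-library ratios were tested by permutation with 100000 resamples.

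The 7 genes, the 9 pathway lists, the 12 marker lists and the tests were chosen with earlier results of these data known. Text names the 7 genes and, per pathway list and comparison, up to 4 genes past the threshold with the smallest p (or the 1 with the smallest p where none passed), plus 3 genes per member with the highest r of log2 CPM after subtracting group means, among genes whose average log2 CPM was 2 or more; Spi1, Csf2rb2 and markers named beside a result were added after their values were seen. Some genes that the rule names are not reported here. Alternatives were RLE, upper quartile and no scaling factors, 2 other filters, series A alone, number series as a covariate, leaving out the Adipoq libraries, 2 groups in the fit, DESeq2 1.42.0, limma-voom (limma 3.58.1), 2 surrogate variables (sva 3.50.0) and each library left out in turn. The edgeR fit was tested on simulated data with known changes. Promoters came from RefSeq (GRCm38.p6). Versions were R 4.3.3, edgeR 4.0.16, Python 3.11.15, NumPy 2.4.6, pandas 2.3.3, SciPy 1.17.1 and Biopython 1.88.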

Additional observations from a re-analysis of the deposited data

Results flagged for a closer look

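In Csf1, control library 2 stood apart: it held 90.6 CPM where the next control library held 76.3, and the gap to its neighbour was 0.488 of the group's whole range on the log2 scale, above the 95% limit of Dixon's test for 10 samples. The limit was 0.466. Chance singles out about 1 in 20 groups, and all 7 genes were checked, in control libraries only.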

How the results depend on the processing

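No paired analysis was possible because the labels give no replicate numbers or other pairing of mice across the groups. The number of the 7 genes that passed was 4, 2 and 3 in vehicle against control, nintedanib against vehicle and nintedanib against control. It stayed within 1.5 times of that in every alternative except that nintedanib against vehicle gave 1 in series A, without the Adipoq libraries and with only the 2 groups in the fit, and vehicle against control gave 2 without the Adipoq libraries. Leaving out 1 library at a time gave 4 to 5, 1 to 3 and 2 to 4. Over all genes the counts were 8585, 1084 and 7888; without the Adipoq libraries, which leaves 2 control and 12 nintedanib libraries, they were 3654, 525 and 3297, and with only 2 groups in the fit nintedanib against vehicle gave 640. Library totals without factors split the calls into 3736 higher and 4882 lower, 369 and 813, and 3250 and 4844, and 2 surrogate variables split those of nintedanib against vehicle into 746 and 562; the cause was not tested.

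Among the 7 genes, directions turned only for values that had not passed. Csf1 in nintedanib against control mice turned to -0.009 with upper quartile factors, -0.013 with limma-voom, -0.022 with 2 groups, -0.057 with library totals, -0.089 with 2 surrogate variables and -0.165 without the Adipoq libraries, and ran from -0.04 to 0.037 when 1 library was left out. Csf2 turned to 0.17 (vehicle against control) and 0.25 (nintedanib against control) without the Adipoq libraries, and the latter ran from -0.181 to 0.105 when 1 library was left out. The rises of Csf2ra and Csf2rb against control passed in every alternative and with any library left out; Csf3r under nintedanib passed with any library left out (0.51 to 0.83) but not in series A. The pairs gave 3 calls with a prior count of 0.5 too. Of the ratios, all kept their direction in series A. Without the Adipoq libraries, where 2 control libraries remain, 7 differences kept their direction and lost their call. With the longest transcript in place of the exon union, 12 levels per kilobase moved by over 1 SD and 15 did not. Ratios in those subsets and the fit without nintedanib library 15 were chosen after seeing the data. Depth limits Csf2 and Csf3, at a few counts per library.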
